A study of Mus musculus with 2 samples.

Results

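The Dlk1-Dio3 domain is an imprinted stretch of distal mouse chromosome 12 that holds one of the largest groups of miRNA genes in mammals. The members described here are 49 mature miRNAs of that domain, taken by name as the miRNAs of its maternally expressed strand outside the group that lies antisense to Rtl1. Of the 49, 42 had a row in the count table of 2083 entries (677 known miRNAs and 1406 predicted ones). The other 7, mmu-miR-154-3p, mmu-miR-376a-3p, mmu-miR-493-3p, mmu-miR-496a-3p, mmu-miR-544-3p, mmu-miR-1193-3p and mmu-miR-3072-3p, were not analysed here. The RNA came from exosomes, the small vesicles that cells release, shed by pancreatic islets of C57BL/6 mice. The HFD group was the islets of mice fed a high-fat diet with 60% fat, and the NCD group those of mice fed a normal diet with 4% fat. Islets of both groups were cultured in medium freed of serum exosomes, and vesicles were pelleted by ultracentrifugation from supernatants gathered daily. Each diet had 1 small RNA library, and the sources used here do not give the number of mice or cultures pooled into it. Every difference below is therefore between 2 libraries and has no replicate check, and no p-value is given.

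In this domain the miRNAs are cut from long non-coding RNAs of the maternal chromosome, among them Meg3, Rian and Mirg, while the paternal chromosome expresses the protein-coding genes Dlk1, Rtl1 and Dio3. A methylation mark near Meg3 decides which chromosome does which. In human islets these miRNAs are enriched in beta cells, and they are known for lower levels in islets of donors with type 2 diabetes, where the region near MEG3 is more methylated. The miRNAs from miR-379 to miR-410 are also characteristic of neurons and of embryonic and mesenchymal cells. A miRNA guides repression of mRNAs mainly through its seed, bases 2 to 8.

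The sequences below are the mature miRNAs that carry the results, from RefSeq on GRCm38.p6, 5′ to 3′, with the seed in capitals. A sequence was found for 39 of the 42 members, all but mmu-miR-376c-3p, mmu-miR-485-5p and mmu-miR-487b-3p. The first set holds the most abundant members with a sequence, which make up most of the members' total.
mmu-miR-543-3p: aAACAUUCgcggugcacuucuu
mmu-miR-541-5p: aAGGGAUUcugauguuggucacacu
mmu-miR-409-3p: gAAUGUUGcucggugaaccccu
mmu-miR-495-3p: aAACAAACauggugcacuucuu
mmu-miR-382-5p: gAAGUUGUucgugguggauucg
mmu-miR-381-3p: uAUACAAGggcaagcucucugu
mmu-miR-379-5p: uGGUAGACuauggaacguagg
mmu-miR-411-5p: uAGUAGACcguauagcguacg
mmu-miR-494-3p: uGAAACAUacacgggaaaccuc

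The second set holds the 8 members past the 2-fold rule given below, all of them rare, and mmu-miR-299a-3p, which overlaps one of them.
mmu-miR-329-3p: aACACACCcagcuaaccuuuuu
mmu-miR-154-5p: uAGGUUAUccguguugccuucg
mmu-miR-539-5p: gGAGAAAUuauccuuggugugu
mmu-miR-376b-5p: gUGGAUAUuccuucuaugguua
mmu-miR-299a-5p: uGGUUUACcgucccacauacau
mmu-miR-377-3p: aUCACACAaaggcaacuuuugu
mmu-miR-412-3p: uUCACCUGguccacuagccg
mmu-miR-299b-3p: uAUGUGGGacgguaaacc
mmu-miR-299a-3p: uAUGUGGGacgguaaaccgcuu

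The 39 sequences hold 37 different seeds, so few members share one. Only 2 seeds occur in more than 1 member. mmu-miR-379-3p and mmu-miR-411-3p share theirs and are the same at 20 of 22 positions. mmu-miR-299a-3p and mmu-miR-299b-3p share theirs because the 18 bases of mmu-miR-299b-3p, from a hairpin on the minus strand of the same place, are the first 18 bases of mmu-miR-299a-3p. Reads of that stretch can be counted to either name, so their split is uncertain. Other members are alike without sharing a seed. mmu-miR-543-3p and mmu-miR-495-3p share a run of 12 bases from position 11, past the seed, and mmu-miR-300-3p and mmu-miR-381-3p a run of 16 bases from position 5, which takes in the end of the seed. The run ACANGGU, read on the miRNA's own strand and chosen after the sequences were seen, stood in 6 of the 39 members (15.4%) and in 11 of 1568 RefSeq mature miRNAs outside the domain (0.702%). For 4 seeds another known miRNA in the table had the same letters, such as mmu-miR-362-3p for mmu-miR-329-3p, and none of those had over 13 counts in a library.

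The HFD library held 2020831 miRNA counts and the NCD library 2417589. Values are given as counts and as counts per 1000000 counts of the library (CPM). miR-375-3p, the characteristic miRNA of islet endocrine cells, had 83261 CPM in the HFD library and 81756 CPM in the NCD library. Of the 5 islet endocrine markers 2 were called higher in HFD and 0 lower by the 2-fold rule given below, and the list took 8.74% of the counts in HFD and 8.43% in NCD. The libraries also held miRNAs of other cells. The hepatocyte markers (miR-122, both arms, 1 of them called higher) took 24.2% of the HFD counts and 32.1% of the NCD counts, the 4 erythroid markers 9.86% in HFD and 12.4% in NCD, the 4 mesenchymal markers 0.363% in HFD and 0.326% in NCD, and the 4 striated muscle markers, all called higher, 0.767% in HFD and 0.0440% in NCD. The 3 acinar markers, all called higher, took 0.0249% in HFD and 0.00844% in NCD, the 3 leukocyte markers, 2 of them higher, 0.0644% in HFD and 0.0456% in NCD, and the endothelial marker miR-126a-3p 1.27% in HFD and 0.634% in NCD. Among 4 neuronal markers, which could share a source with these members, miR-124-3p was near 0, with 1 count in HFD and 2 in NCD. The other 3 were measured and within 2-fold, and the summed list, nearly all of it miR-128-3p, had 3566 CPM in HFD and 6712 CPM in NCD. What part such cells have in the results below was not tested.

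Most members with a row were counted in the exosome libraries of both diets, and together they held a small, similar share. At least 1 count was found for 40 of the 42 members in the HFD library and for 41 in the NCD library, and at least 10 counts for 37 in each. All 677 known miRNAs with a row had at least 1 count in a library, so a row already means detection. Of those 677, 353 had at least 10 counts in HFD and 343 in NCD. Summed, the members had 46023 counts in HFD, 2.28% of the library (95% exact binomial interval 2.26 to 2.30), against 61931 counts in NCD, 2.56% (2.54 to 2.58). The ratio of HFD over NCD was 0.889, with a 95% exact (Clopper-Pearson) counting interval of 0.878 to 0.900. Such intervals cover counting error only, since PCR duplicates cannot be told from distinct molecules here. With values scaled by library totals, the lower sum rested on a single miRNA. Without mmu-miR-543-3p the members had 36301 counts in HFD and 42571 in NCD, a ratio of 1.02 (1.01 to 1.03). With totals of known miRNAs only that ratio stayed at 1.02. It was below 1 with TMM factors (0.920) and with totals that leave out the 5 most abundant miRNAs (0.959). The size factors of DESeq2 came out at 1 for both libraries, so they leave the difference in depth uncorrected. Under them the ratio was 0.853.

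**Figure D1:**
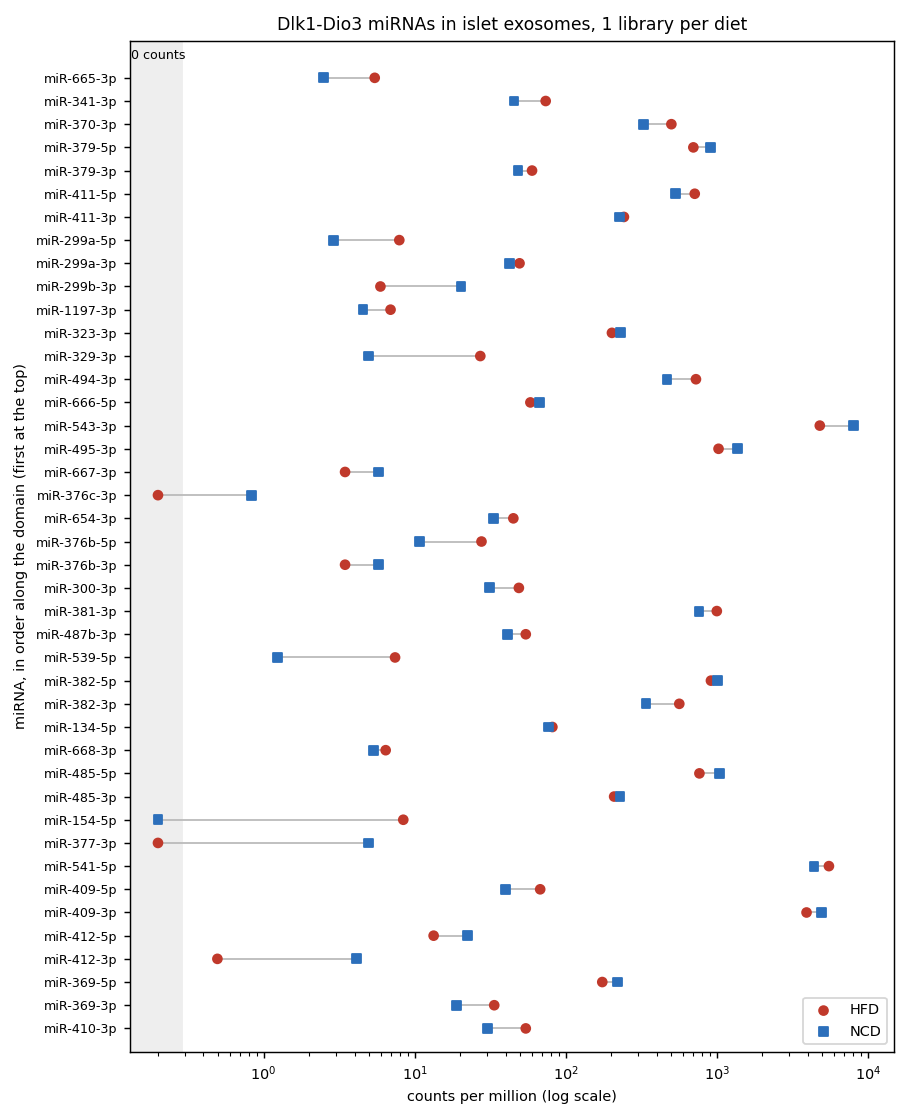
Level of each of the 42 members in CPM (log scale), in the order of their hairpins along the domain, with HFD as circles and NCD as squares. Points in the grey band stand for 0 counts, and the pairs farthest apart are those of rare miRNAs such as mmu-miR-154-5p, with 17 counts in HFD and 0 in NCD.

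A handful of members made up most of the total. The 3 most abundant, mmu-miR-543-3p, mmu-miR-541-5p and mmu-miR-409-3p, held 62.7% of the members' counts in HFD and 67.8% in NCD. The 10 most abundant held 88.4% in HFD and 91.6% in NCD. mmu-miR-543-3p had 9722 counts (4811 CPM) in HFD, against 19360 counts (8008 CPM) in NCD, a ratio of 0.601 (0.586 to 0.616). It ranked 25th of all known miRNAs in HFD and 15th in NCD. mmu-miR-541-5p had 11174 counts (5529 CPM) in HFD, against 10647 counts (4404 CPM) in NCD, a ratio of 1.26 (1.22 to 1.29), and ranked 22nd in HFD and 26th in NCD. The leading member of the domain was thus mmu-miR-541-5p in the HFD library and mmu-miR-543-3p in the NCD library. As a share of the members' own counts, which does not depend on how the libraries are scaled, mmu-miR-543-3p had 21.1% in HFD (20.8 to 21.5) and 31.3% in NCD (30.9 to 31.6), and mmu-miR-541-5p had 24.3% in HFD (23.9 to 24.7) and 17.2% in NCD (16.9 to 17.5). mmu-miR-409-3p had 7944 counts in HFD and 11968 in NCD, a ratio of 0.794 (0.772 to 0.817).

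**Figure D2:**
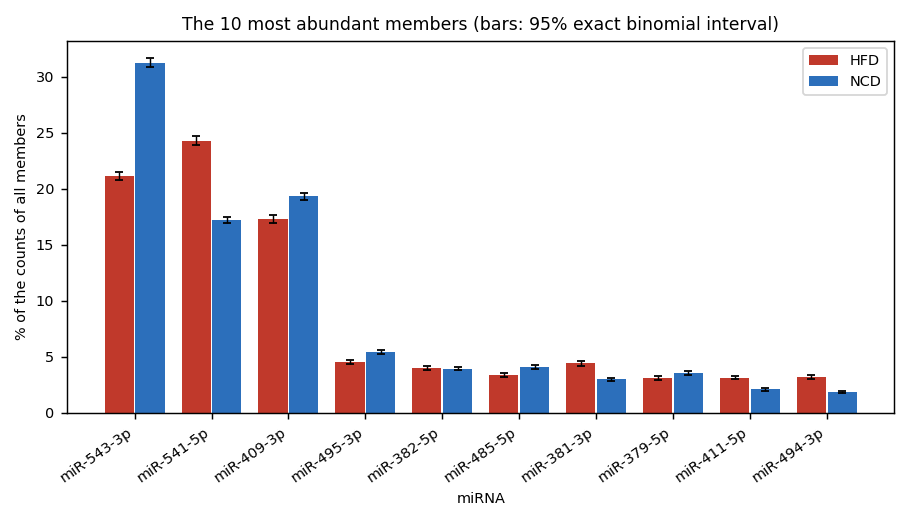
Share of the counts of all members taken by the 10 most abundant ones, as bars from 0 with 95% exact binomial intervals, HFD left of NCD. mmu-miR-543-3p had 21.1% in HFD and 31.3% in NCD, and mmu-miR-541-5p 24.3% in HFD and 17.2% in NCD.

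The other 7 of the 10 most abundant members had ratios on both sides of 1, all with intervals that leave 1 out. At such counts this is common: it held for 87 of the 91 known miRNAs whose larger count was 1000 or more. mmu-miR-495-3p, which has the same last 12 bases as mmu-miR-543-3p, had 2077 counts in HFD and 3330 in NCD, a ratio of 0.746 (0.706 to 0.788). mmu-miR-485-5p, which represses the synaptic vesicle protein SV2A in rat neurons, had 1552 counts in HFD and 2519 in NCD, a ratio of 0.737 (0.691 to 0.786). mmu-miR-379-5p, the first miRNA of the long stretch and one induced by glucocorticoids in mouse liver, had 1415 counts in HFD and 2197 in NCD, a ratio of 0.771 (0.720 to 0.824). For these 3 the HFD library was the lower one, as it was for mmu-miR-382-5p, with 1850 counts in HFD and 2443 in NCD and a ratio of 0.906 (0.852 to 0.963). mmu-miR-381-3p, which takes part in dendrite growth in rat neurons, had 2023 counts in HFD and 1844 in NCD, a ratio of 1.31 (1.23 to 1.40). mmu-miR-411-5p, whose hairpin follows that of miR-379, had 1445 counts in HFD and 1293 in NCD, a ratio of 1.34 (1.24 to 1.44). mmu-miR-494-3p had 1472 counts in HFD and 1132 in NCD, a ratio of 1.56 (1.44 to 1.68). In these last 3 the HFD library was the higher one. Abundant neighbours in the domain thus stood on opposite sides of 1, and each of the 10 was within 2-fold.

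To set the members against the rest of the table, a miRNA was taken as measured if its larger count was 10 or more. It was called higher or lower in HFD when the log2 ratio, with a pseudocount of 1 CPM, was at least 1 either way, a rule of size and not a test. Of the 42 members 41 were measured, all but mmu-miR-376c-3p, which had 0 counts in HFD and 2 in NCD. Of the 41, 5 were called higher (12.2%) and 3 lower (7.32%), against 25.3% higher and 9.56% lower among all 387 measured known miRNAs. The median log2 ratio of the members was 0.30, beside 0.33 for all known miRNAs, so the middle of the list lay close to that of the whole table. Among miRNAs whose larger count was 100 or more the medians lay farther apart, at 0.15 for 24 members and 0.31 for 207 known miRNAs. The log2 ratio was above 0 for 25 of the 41 members and below 0 for 16. With TMM factors 2 members near 0 changed sign (mmu-miR-411-3p and mmu-miR-134-5p), with DESeq2 size factors these and mmu-miR-299a-3p, and with totals that leave out the 5 most abundant miRNAs mmu-miR-134-5p alone.

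With no correction for base composition, the differences past 2-fold were limited to rare members; with the GC trend removed, mmu-miR-341-3p and mmu-miR-370-3p, which are not rare, also passed. Of the 24 members whose larger count was 100 or more, 0 were called in either direction, and their ratios ran from 0.601 for mmu-miR-543-3p to 1.80 for mmu-miR-410-3p. Among all 207 known miRNAs with as many counts, 19.3% were called higher and 5.31% lower. All 8 called members were among the 17 with 10 to 99 counts, where 5 were higher (29.4%) and 3 lower (17.6%), near the 32.2% and 14.4% of the 180 known miRNAs in that range. Of the 8, 5 reached 10 counts in 1 library only. The whole counting interval lay beyond 2-fold for 2 members higher in HFD and 1 lower, against 15.0% and 2.84% of all measured known miRNAs.

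**Figure D3:**
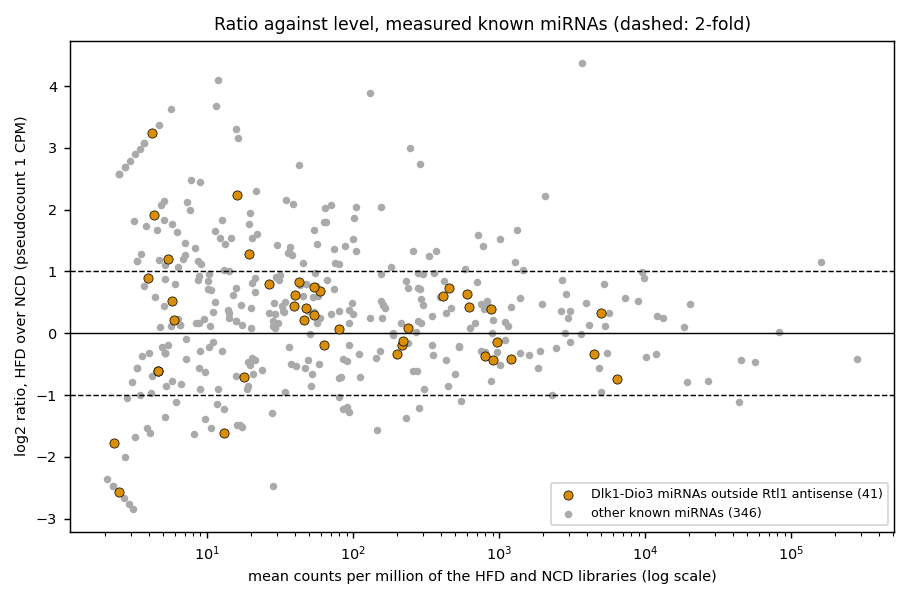
Log2 ratio of HFD over NCD against the mean level of the libraries (log scale) for measured known miRNAs, with the 41 measured members in orange, the other 346 in grey and dashed lines at 2-fold. Orange points beyond the dashed lines lie at the low end of the level axis, and those above 100 counts lie between ratios of 0.601 and 1.80.

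Of the rare members higher in HFD, mmu-miR-329-3p had 55 counts (27.2 CPM) in HFD, against 12 counts (4.96 CPM) in NCD, a ratio of 5.48 (2.90 to 11.2). In rat neurons miR-329 takes part with miR-134 and miR-381 in activity-dependent dendrite growth. mmu-miR-134-5p, which limits the size of dendritic spines by repressing Limk1, had 165 counts in HFD and 187 in NCD, a ratio of 1.06 (0.851 to 1.31), so those 3 did not share a ratio. mmu-miR-154-5p had 17 counts in HFD and 0 in NCD. Set against 3 counts in NCD, the upper limit for a count of 0, its 17 counts were at least 6.78-fold higher, a value that leaves out the counting error of the 17. With that error included, the interval of the ratio began at 4.94. It was measured through the HFD library alone. mmu-miR-539-5p had 15 counts in HFD and 3 in NCD, a ratio of 5.98 (1.69 to 32.2), which leaves its size poorly known. mmu-miR-376b-5p had 56 counts in HFD and 26 in NCD, a ratio of 2.58 (1.59 to 4.28). mmu-miR-299a-5p had 16 counts in HFD and 7 in NCD, a ratio of 2.73 (1.06 to 7.86). mmu-miR-665-3p, the one measured member upstream of the Rtl1 antisense group, had 11 counts in HFD and 6 in NCD and fell short of the rule once the pseudocount was added.

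Of the rare members lower in HFD, mmu-miR-377-3p, known for raised levels in kidney mesangial cells under high glucose, had 0 counts in HFD and 12 in NCD. Against 3 counts in HFD it was at least 3.34-fold lower, leaving out the counting error of the 12, and with that error included the interval began at 2.32-fold lower. It was measured through the NCD library alone. mmu-miR-412-3p had 1 count in HFD and 10 in NCD, a ratio of 0.120 (0.00276 to 0.841). mmu-miR-299b-3p had 12 counts in HFD and 49 in NCD, a ratio of 0.293 (0.142 to 0.559). The last rests on the uncertain split named above: added to mmu-miR-299a-3p, which had 100 counts in HFD and 103 in NCD, the pair had 112 counts in HFD and 152 in NCD, a ratio of 0.882 (0.684 to 1.13), within 2-fold. mmu-miR-376b-3p and mmu-miR-667-3p each had 7 counts in HFD and 14 in NCD, with an interval that allows either direction (0.204 to 1.58). Transcripts of miR-376 are edited from A to I within the seed in some tissues, and the sources used here do not say whether edited reads were counted.

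**Figure D4:**
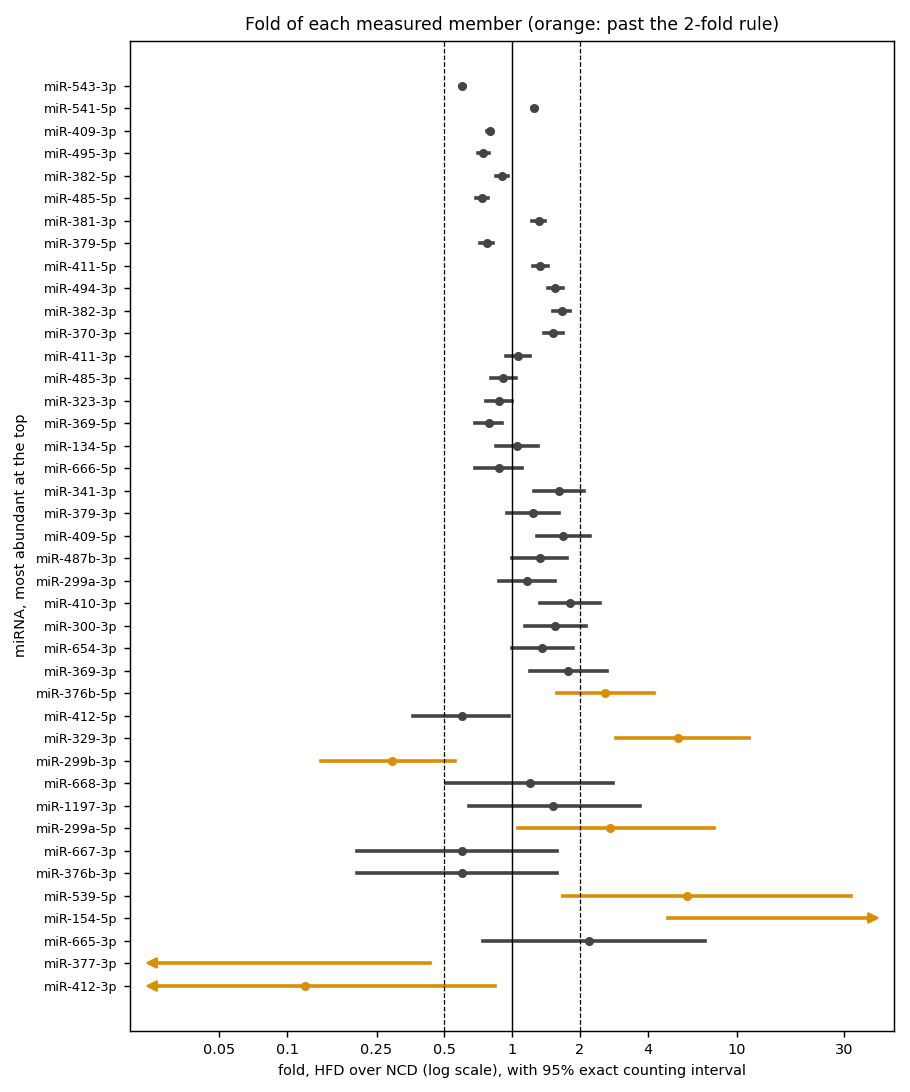
Fold of HFD over NCD (log scale) with its 95% exact counting interval for the 41 measured members, from the most abundant at the top to the rarest, with those past the 2-fold rule in orange. Intervals are narrow and inside the dashed 2-fold lines at the top and wide at the bottom, and arrows mark intervals that run off the axis; mmu-miR-154-5p and mmu-miR-377-3p have no point because 1 library held 0 counts.

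Intervals left 1 out for 29 of the 41 measured members, beside 282 of the 387 measured known miRNAs. Between these ends stood members with ratios of 1.5 to under 2 whose intervals left 1 out. mmu-miR-410-3p, reported to enhance insulin secretion in a mouse beta cell line and the last hairpin of the measured stretch, had 110 counts in HFD and 73 in NCD, a ratio of 1.80 (1.33 to 2.46). mmu-miR-300-3p had 99 counts in HFD and 76 in NCD, a ratio of 1.56 (1.14 to 2.13), beside 1.31 for its near relative mmu-miR-381-3p. mmu-miR-370-3p, reported to repress the fatty acid oxidation gene Cpt1a, had 1012 counts in HFD and 793 in NCD, a ratio of 1.53 (1.39 to 1.68). mmu-miR-341-3p had 149 counts in HFD and 110 in NCD, a ratio of 1.62 (1.26 to 2.09). Both are GC-rich, at 68.2% and 66.7%, whereas across the table GC-rich miRNAs tended to lower ratios. With the linear trend of the log2 ratio with GC content taken out, these 2 passed the rule, at log2 ratios of 1.34 and 1.36, and mmu-miR-376b-5p no longer did, at 0.78. mmu-miR-487b-3p had 110 counts in HFD and 99 in NCD, with an interval that barely left 1 out (1.004 to 1.76), and mmu-miR-323-3p had 409 in HFD and 559 in NCD, a ratio of 0.875 (0.769 to 0.996). mmu-miR-412-5p had 27 counts in HFD and 54 in NCD, a ratio of 0.598 (0.362 to 0.966). The intervals of mmu-miR-654-3p, mmu-miR-666-5p, mmu-miR-668-3p, mmu-miR-1197-3p, mmu-miR-379-3p, mmu-miR-411-3p and mmu-miR-485-3p include 1, and their ratios ran from 0.871 for mmu-miR-666-5p (118 counts in HFD, 162 in NCD) to 1.52 for mmu-miR-1197-3p (14 counts in HFD, 11 in NCD).

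For 9 hairpins both arms were measured members, and the split between the arms can be compared without any scaling of the libraries. In most hairpins one arm, the guide, is kept in the silencing complex and the other is discarded. The major arm was the same in HFD and NCD for all 9. For 6 of the 9 the intervals of the 5p share did not overlap. The same count was not made for other hairpins, so whether 6 of 9 is unusual in these libraries is not known. In percentage points the largest gap among those 6 was that of miR-382, with 1850 counts of the 5p arm and 1142 of the 3p arm in HFD, against 2443 and 823 in NCD. The ratio of mmu-miR-382-3p was 1.66 (1.52 to 1.82), beside 0.906 for mmu-miR-382-5p. The 5p arm of miR-382 took 61.8% in HFD (60.1 to 63.6) and 74.8% in NCD (73.3 to 76.3). The miR-369 5p arm took 83.8% in HFD (80.0 to 87.2), from 353 of its counts with 68 of the 3p arm, and 92.1% in NCD (89.6 to 94.2), from 536 and 46. Here mmu-miR-369-5p had a ratio of 0.788 (0.687 to 0.903) and mmu-miR-369-3p, which in human cells binds the AU-rich element of the TNF mRNA, one of 1.77 (1.20 to 2.63). The 5p arm of miR-379 took 92.1% in HFD (90.7 to 93.4) and 94.9% in NCD (94.0 to 95.8), and that of miR-485 78.6% in HFD (76.7 to 80.4) and 82.0% in NCD (80.6 to 83.3). The miR-409 5p arm, the minor one, took 1.70% in HFD (1.43 to 2.001), with 137 counts, and 0.804% in NCD (0.652 to 0.980), with 97, and mmu-miR-409-5p had a ratio of 1.69 (1.29 to 2.21). In these 5 hairpins the minor arm had the larger share in HFD. miR-411 went the other way, with 74.6% for its major 5p arm in HFD (72.6 to 76.6) and 70.1% in NCD (68.0 to 72.2). Where the intervals overlapped, counts were few. The major 5p arm of miR-376b took 88.9% in HFD (78.4 to 95.4) and 65.0% in NCD (48.3 to 79.4), a wider gap than that of miR-382. The major 5p arm of miR-412 took 96.4% in HFD and 84.4% in NCD, and the minor 5p arm of miR-299a 13.8% in HFD and 6.36% in NCD.

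**Figure D5:**
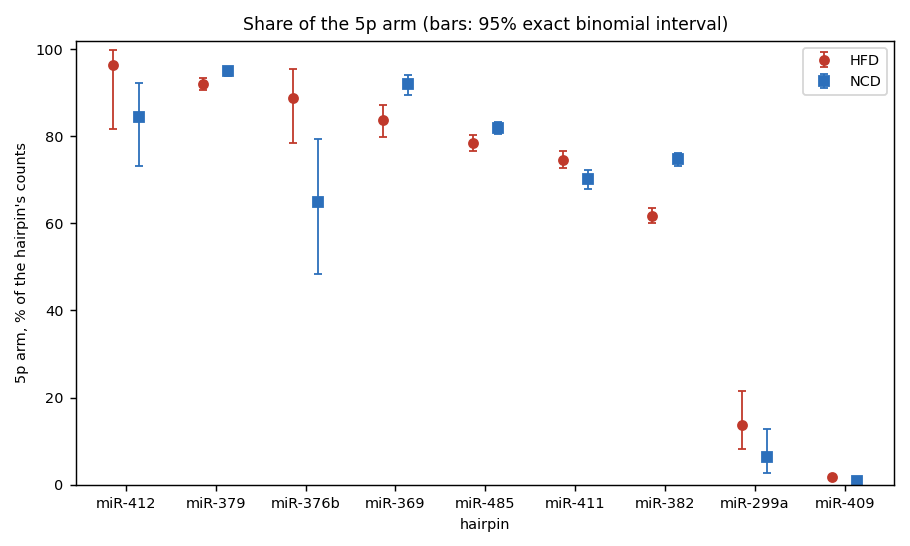
Share of the 5p arm in the counts of each of the 9 hairpins with both arms measured, in percent, with 95% exact binomial intervals, HFD left of NCD. Among hairpins whose intervals do not overlap, the miR-382 points stand farthest apart, at 61.8% in HFD and 74.8% in NCD.

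The log2 ratios of the arms had opposite signs in 5 of the 9 hairpins (55.6%), against 35 of 80 other known hairpins with both arms measured (43.8%), and the median gap between the arms was 0.98 on the log2 scale, against 0.83. The minor arm had the higher ratio in 6 of the 9 (66.7%), against 45 of the 80 (56.25%). The arm with the lower GC content had the higher ratio in 7 of the 8 hairpins whose arms both had a sequence, against 36 of 60 among other known hairpins (60.0%). With the GC trend removed, the log2 ratio of mmu-miR-382-3p was 0.22 (0.73 without removal) and that of mmu-miR-382-5p -0.12 (-0.14). For mmu-miR-369-3p it was -0.20 (0.79) and for mmu-miR-369-5p -0.49 (-0.34). For mmu-miR-409-5p it was 0.68 (0.74) and for mmu-miR-409-3p -0.13 (-0.33). What part base composition has in the arm shares was not tested. Among miRNAs whose larger count was 100 or more, GC content and log2 ratio had a Spearman rho of -0.10 across 22 members, beside -0.45 across 158 other known miRNAs. These points share the same 2 libraries and many are arms of 1 hairpin.

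Along the chromosome (GRCm38, plus strand) the hairpins of members in the table ran from Mir665 at chr12:109586314-109586407 to Mir410 at chr12:109743715-109743795. Only miR-299b lies on the minus strand. Mir341 (chr12:109611500-109611595) and Mir370 (chr12:109618258-109618336) lie in introns of Rian, between the Rtl1 antisense group and Mir379 (chr12:109709060-109709125). Those 2 had a summed ratio of 1.54 (1.41 to 1.68). The stretch from miR-379 to miR-410 held 39 of the 42 members and 97.5% of the members' counts in HFD and 98.5% in NCD. Its first part, from Mir379 to Mir539, lies before the annotated start of Mirg. There the 23 members had 19875 counts in HFD and 31041 in NCD, a ratio of 0.766 (0.752 to 0.780), which became 1.04 (1.01 to 1.07) without mmu-miR-543-3p (Mir543, chr12:109717258-109717333). That last ratio was also 1.04 with totals of known miRNAs only. It was below 1 with TMM factors (0.938) and without the 5 most abundant miRNAs in the totals (0.978). With DESeq2 size factors, which left depth uncorrected, it was 0.869. Its second part lies in exons or introns of Mirg (chr12:109729764-109749460). There the 16 members had 24976 counts in HFD and 29981 in NCD, a ratio of 0.997 (0.980 to 1.01), and the ratio was 0.899 with TMM factors. The rule called 4 of 22 measured members higher (18.2%) and 1 lower (4.55%) in the first part, and 1 of 16 higher (6.25%) and 2 lower (12.5%) in the second, beside 25.3% higher and 9.56% lower among all measured known miRNAs.

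Other miRNAs of the domain were set beside these. Rtl1 antisense miRNAs, which lie on the maternal strand opposite the paternally expressed gene Rtl1 and direct cleavage of its mRNA, had 13214 counts in HFD and 14098 in NCD over 9 arms, a ratio of 1.12 (1.09 to 1.15). That ratio was 1.01 with TMM factors and 0.937 with DESeq2 size factors, which left depth uncorrected. The rule called 2 of these 9 higher (22.2%) and 0 lower, near the 25.3% and 9.56% of all measured known miRNAs, and their median log2 ratio was 0.35. The 27 other entries of the domain, mostly rare arms of the same hairpins, had 11 measured, 1 called higher (9.09%, beside the same 25.3%) and 0 lower, with a median of 0.10. Their most abundant entry, mmu-miR-493-5p, had 1446 counts in HFD and 2140 in NCD, a ratio of 0.808 (0.756 to 0.865). At other imprinted loci 4 miRNAs were measured, with mmu-miR-335-5p of Mest called higher, at 150 counts in HFD and 25 in NCD, and mmu-miR-296-3p of the Gnas locus called lower, at 16 in HFD and 117 in NCD.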

How the data were processed

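The single deposited table holds, per the file headers, a count and a TPM value per library and the authors' p-value, FDR and log2 fold change. The deposited counts are whole numbers per miRNA. The authors' TPM equals each count divided by its library's table total, times 1000000, so miRNA length does not enter it. The deposited p-value and log2 columns compare 1 library with 1 library and were not used. Per the submitters' processing notes the build was GRCm38. How reads were aligned, miRNAs called and multiple matches counted was not given in the sources used here.

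CPM, log2 ratios (pseudocount 1 CPM), exact counting intervals (scipy 1.17.1) and the 2-fold rule were computed from the counts and tested on simulated data. The simulation changed only entries above a minimum expected count. It therefore does not cover mmu-miR-154-5p, mmu-miR-539-5p, mmu-miR-299a-5p, mmu-miR-377-3p and mmu-miR-412-3p, which are most of the called members. Every member past 2-fold, the 10 most abundant and those whose interval leaves 1 out were named. Members, lists and rules were chosen with earlier results of these data known. A count of 0 allows up to 1.48 CPM in HFD and 1.24 CPM in NCD (3 counts). Sequences came from RefSeq (GRCm38.p6) and hairpins from GENCODE M21. Alternatives were TMM (edgeR 4.0.16) and median-of-ratios (DESeq2 1.42.0) factors, other totals, pseudocounts and count minimums, and GC content. The DESeq2 factors were 1 for both libraries, which amounts to comparing counts with no depth correction.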

Additional observations from a re-analysis of the deposited data

How the results depend on the processing

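Of the results over all members, 5 were called higher and 3 lower. The counts were within 1.5 times of these under each scaling, with a pseudocount of 0.1 CPM, with no count minimum, with the GC trend removed and with the 2 overlapping miR-299 entries counted as 1, an alternative added after the values were seen. With a pseudocount of 10 CPM they were 1 higher and 0 lower (all known miRNAs: 53 and 10 of 387), with at least 100 counts 0 and 0 (40 and 11 of 207), and with the whole interval beyond 2-fold 2 and 1 (58 and 11 of 387). The median log2 ratio of 0.30 was 0.16 with TMM factors, which moved the median of all known miRNAs by -0.15. With DESeq2's median-of-ratios factors, which were 1 for both libraries and left depth uncorrected, it was 0.048. Those factors moved the median of all known miRNAs by -0.26. With at least 100 counts, which keeps 24 members, the members' median was 0.15, beside 0.31 for all known miRNAs. The summed ratio of 0.889 was 0.802 (TMM), 0.743 (median of ratios) and 0.836 (totals leaving out the 5 most abundant miRNAs). With library totals it turned above 1, to 1.02, without mmu-miR-543-3p, also added afterwards. Among the 41 measured members, mmu-miR-299a-5p fell short of 2-fold under median-of-ratios scaling (log2 ratio 0.98), and a pseudocount of 10 CPM brought 7 of the 8 called members within 2-fold, all but mmu-miR-329-3p. mmu-miR-665-3p was called higher with a pseudocount of 0.1 CPM (1.10). With the GC trend removed, which leaves 39 members, mmu-miR-665-3p (1.498), mmu-miR-341-3p (1.36) and mmu-miR-370-3p (1.34) were called higher, mmu-miR-376b-3p (-1.04) lower and mmu-miR-376b-5p (0.78) neither, and the sign of mmu-miR-369-3p changed, to a log2 ratio of -0.20. No paired analysis was possible because each diet has 1 library. Counts under about 20 leave the size of a fold open to several times either way, as the intervals show.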
